A study of Mus musculus with 5 samples.

Results

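Arctigenin on top of LPS was compared with LPS alone in RAW264.7 cells, an established mouse macrophage-like line, by RNA sequencing. The comparison used 4 of the 5 libraries of the series. Cells of 2 libraries received LPS, labelled as 0.5 mg/mL, together with arctigenin at 1 μM, and cells of the other 2 received LPS at the same labelled dose. The fifth library, labelled as vector, had neither agent, and its levels are given for orientation and entered no test of this comparison. The genes described are those with at least 10 estimated counts in at least 2 of the 4 libraries. This rule took 11062 of the 21878 gene symbols of the table, whichever group the counts came from, and left out 10816. All groups came from this line, which was derived from a virus-induced tumour, so the model is a transformed line and not primary macrophages. The sources used here do not state how long the cells were treated. No library is named as a control for the solvent of arctigenin, and the compound and its solvent cannot be told apart. The labels do not say whether replicates were separate cultures, so all p-values measure the spread between these libraries, which may be technical.

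LPS is a lipid of the outer membrane of Gram-negative bacteria. Macrophages sense it through CD14 and the receptor TLR4, whose adaptors switch on NF-kB, the MAP kinases ERK, JNK and p38, and interferon regulatory factors. These in turn drive cytokines, chemokines, prostaglandin and nitric oxide synthesis and an interferon response, and LPS is also known to slow the division of macrophages and to change their lipid metabolism. Arctigenin is a lignan of burdock that is studied as an anti-inflammatory compound.

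The libraries held between 19836148 and 20783960 estimated counts (21578285 for vector). Values below are CPM, estimated counts scaled to the size of each library, with TMM, a normalisation that centres the bulk of genes on no change. CPM grow with transcript length, so levels are compared between libraries and not between genes. Across genes, log2 CPM correlated at r = 0.988 between the arctigenin replicates and at 0.991 between the LPS replicates, against 0.960 to 0.967 between libraries of different groups. Transcripts of macrophages were present in all 4 libraries. The lysosomal marker Cd68 measured 868 and 897 CPM with LPS and arctigenin, against 893 and 942 CPM with LPS, and the leukocyte phosphatase Ptprc measured 498 and 459 CPM with LPS and arctigenin, against 484 and 472 CPM with LPS. Other macrophage markers were not all level, since Adgre1 fell 1.32-fold, Itgam fell 1.47-fold and Spi1 rose 1.16-fold. Csf1r, Lyz2, Tyrobp and Aif1 lacked a call. Aif1 was low, with 3.99 and 4.77 CPM with LPS and arctigenin, against 3.31 and 3.87 CPM with LPS. Of 23 markers of other cell types in the table, 17 had under 10 counts in each of the 4 libraries and 10 had none, among them the T cell gene Cd3e, the epithelial Epcam and the neutrophil gene Ly6g. Their summed level was 4.96 and 5.24 CPM, here without TMM scaling, with LPS and arctigenin, against 7.75 and 6.20 CPM with LPS. Of the 6 markers tested 2 fell and 1 rose, and their part in the results was not tested. The fibroblast genes Dcn and Lum fell, Dcn with 0.409 and 0.457 CPM with LPS and arctigenin, against 3.73 and 3.24 CPM with LPS (log2 −2.99 ± 0.40, SE, adjusted p = 0.000143), and Lum with 0.102 and 0.254 CPM with LPS and arctigenin, against 1.04 and 0.774 CPM with LPS (adjusted p = 0.017, and 0.0129 to 0.12 over the alternatives, highest without LPS replicate 1 and 0.0779 without arctigenin replicate 1). Col1a2, also of fibroblasts, had 8 and 4 counts with LPS and arctigenin, against 3 and 1 counts with LPS, and was not tested. Pecam1, a gene of endothelium that leukocytes also express, rose, with 2.46 and 2.39 CPM with LPS and arctigenin, against 0.945 and 0.774 CPM with LPS (adjusted p = 0.00876, and 0.00548 to 0.0682 over the alternatives, highest without LPS replicate 2). In cell populations measured as a whole, fewer cells of a kind and less RNA per cell cannot be told apart, which holds for every result here.

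With arctigenin, close to as many genes rose as fell. TMM centres the bulk of genes on no change, so this balance is largely set by the scaling. A shift common to all genes could not show. By the quasi-likelihood test of edgeR, at a Benjamini-Hochberg adjusted p under 0.05, 5266 genes were called (47.6% of those tested). Of them 2658 rose (24.0%) and 2608 fell (23.6%). Most changes were small, since 405 genes rose at least 2-fold (3.66%) and 506 fell at least 2-fold (4.57%). The median log2 fold change over all genes was −0.00, and its quartiles were −0.34 and 0.30. Replicates differed less, with a median absolute log2 difference of 0.12 between the arctigenin libraries and 0.10 between the LPS libraries. In 8342 of the 11062 genes tested the libraries of the groups did not overlap. Groups that stand apart, as described for single genes below, are therefore common and add little to a call. A test that asks for a change beyond 1.5-fold called 870 genes, 421 of them higher and 449 lower, and the same test as above run on single transcripts called 342. Counts and medians of lists in brackets belong to fits without the named library or with another setting, and are given where they differ more than 1.5-fold. The shares of rises and falls both lay within 10 percentage points of those of all genes in the lists of G1 cyclins, p53 targets, the Ras and MAPK cascade, antigen presentation, vascular factors, the endoplasmic reticulum, cholesterol efflux, macrophage identity, metalloproteinases and markers of other cell types, which therefore do not stand apart by their counts.

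**Figure D1:**
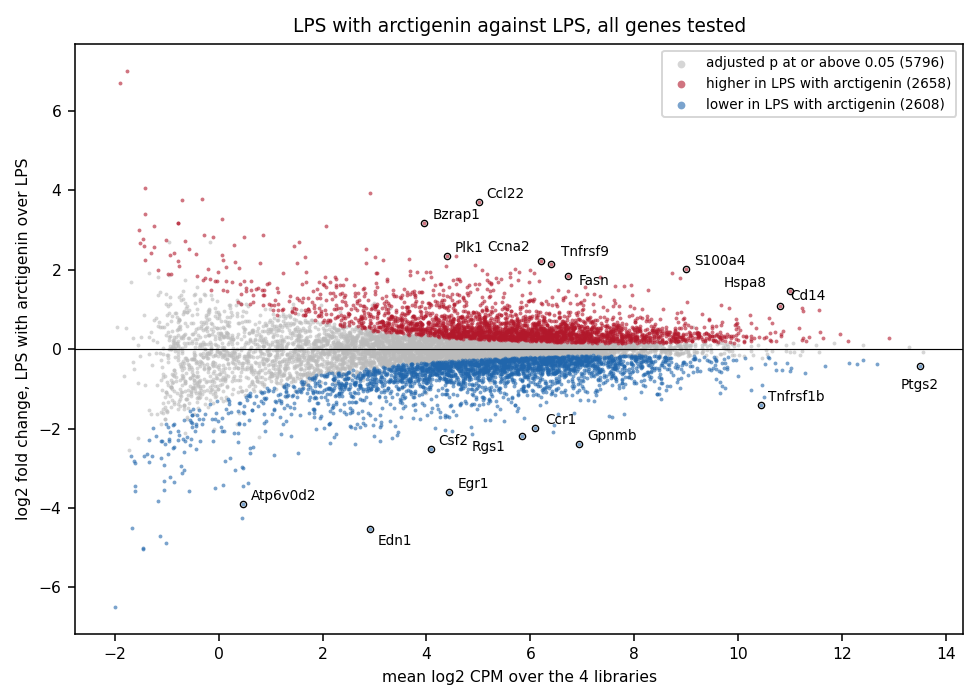
Mean log2 CPM over the 4 libraries (x axis) against the log2 fold change of LPS with arctigenin over LPS (y axis), with a point for each of the 11062 genes tested. Red points are the 2658 genes that rose and blue points the 2608 that fell, and circles mark genes described in the text.

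Genes of cell division rose together. Over 5 lists of mitosis genes, 82 of 84 members rose and 65 of them at least 2-fold, with a median log2 fold change of 1.40. In all 84 both arctigenin libraries lay above both LPS libraries, which held for 37.5% of all genes tested. The members without a call were the cyclin Ccnf (log2 0.19 ± 0.13, adjusted p = 0.246) and the kinetochore gene Cenpt (log2 0.27 ± 0.16, adjusted p = 0.187).

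Entry into mitosis is driven by cyclin-dependent kinase 1 with cyclins A and B, which the CDC25 phosphatases and Polo-like kinase 1 switch on. Of 14 genes of this step 13 rose, with a median log2 fold change of 1.44, and medians given below are of the same quantity. The 13 include the inhibitory kinases Wee1 and Pkmyt1, up 2.98-fold and 2.31-fold, and so are not all activators of the step. Plk1 measured 51.1 and 43.4 CPM with LPS and arctigenin, against 8.93 and 9.68 CPM with LPS and 22.2 CPM with vector, so the replicates stood close together in both groups and well apart between them. It rose 5.07-fold (log2 2.34 ± 0.12, SE, adjusted p = 4.08e-07). Ccna2, cyclin A2, measured 168 and 151 CPM with LPS and arctigenin, against 34.9 and 33.5 CPM with LPS, and rose 4.65-fold. Ccnb1, cyclin B1, measured 102 and 95.4 CPM with LPS and arctigenin, against 29.5 and 29.5 CPM with LPS, and rose 3.35-fold. For both cyclins the vector library lay between the groups, at 76.9 CPM for Ccna2 and 51.6 CPM for Ccnb1. The phosphatase Cdc25c rose 3.79-fold and the kinase Aurka 3.24-fold. Plk1 is a protein-coding gene at chr7:129302951-129313389 of mm9, plus strand.

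The spindle checkpoint holds the anaphase-promoting complex (APC/C) in check until every chromosome is attached, and the APC/C then marks cyclin B and securin for destruction. All 18 genes of this list rose, 14 of them at least 2-fold (median 1.39). Ube2c, the ubiquitin-conjugating enzyme that works with the APC/C, measured 131 and 122 CPM in the arctigenin libraries, against 30.6 and 33.2 CPM in the LPS libraries. Espl1, separase, which cuts the cohesin ring, measured 30.4 and 31.4 CPM in the arctigenin libraries, against 7.61 and 8.52 CPM in the LPS libraries. Sgol2a, a shugoshin that protects centromeric cohesin, rose 4.37-fold, Aurkb, the kinase of the chromosomal passenger complex, 3.81-fold, and the APC/C inhibitor Fbxo5 3.80-fold.

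Among motors and spindle proteins all 20 genes rose, 16 at least 2-fold (median 1.65). The spindle gene Troap rose 4.74-fold, to 21.0 and 17.8 CPM with LPS and arctigenin, against 3.64 and 4.55 CPM with LPS. The microtubule depolymerase Kif2c rose 3.63-fold and the spindle proteins Hmmr and Nusap1 rose 3.52-fold and 3.48-fold. Of 17 kinetochore and centromere genes 16 rose (median 1.16), led by Cenpf, with 122 and 94.7 CPM in the arctigenin libraries, against 32.9 and 23.4 CPM in the LPS libraries, and Nuf2, a subunit of the microtubule-binding NDC80 complex, which rose 3.39-fold. All 15 genes of chromosome condensation and cytokinesis rose (median 1.49). The scaffold Iqgap3 rose 4.79-fold, the abscission gene Cep55 3.69-fold and the topoisomerase Top2a, which untangles sister chromatids, 3.54-fold.

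DNA replication genes rose too, by less. Licensing loads the MCM helicase at origins in G1, and the GINS and CDC45 proteins turn it on in S phase. Of 19 licensing and firing genes 18 rose, 5 at least 2-fold (median 0.75), the exception being Cdt1 (log2 0.20 ± 0.08, adjusted p = 0.0706). Mcm5, an MCM subunit, measured 99.0 and 101 CPM with LPS and arctigenin, against 38.04 and 47.7 CPM with LPS, and the loader Cdc6 measured 10.8 and 10.0 CPM with LPS and arctigenin, against 3.69 and 4.06 CPM with LPS. They rose 2.34-fold and 2.68-fold. Of 26 genes of DNA synthesis and nucleotide supply 23 rose (median 0.71), among them both subunits of ribonucleotide reductase, Rrm1 by 2.36-fold and Rrm2 by 2.34-fold. The subunits Pola2 and Prim2 of the polymerase that starts new strands were among those without a call, with adjusted p of 0.846 and 0.249. Of 16 recombination and Fanconi genes 13 rose (median 1.01), including Fancd2 by 2.63-fold and Brca1, which acts in repair by homologous recombination, by 2.12-fold.

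**Figure D2:**
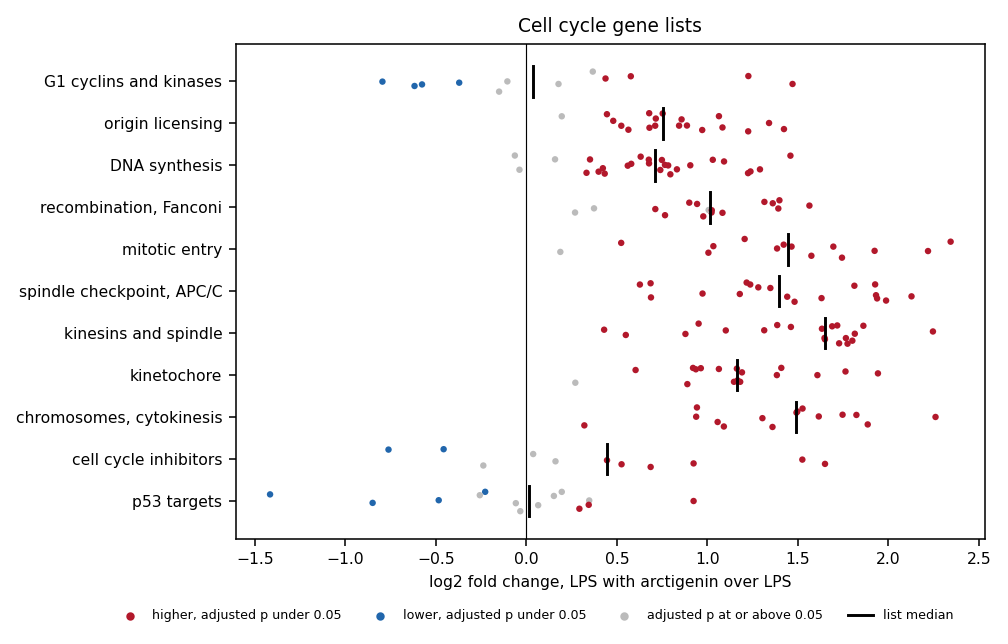
Log2 fold change of LPS with arctigenin over LPS (x axis) for each tested member of 11 cell cycle lists (rows), with a black bar at each list's median. The medians of the 5 mitosis lists lie between 1.16 and 1.65, those of origin licensing and DNA synthesis at 0.75 and 0.71, and that of the G1 list at 0.04.

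The promoters of these genes are shown because the members moved together. Mitosis genes are known to carry a CDE/CHR element (the CHR is TTTGAA), which binds the DREAM and MuvB complexes, next to CCAAT boxes (CCAAT) bound by NF-Y, and replication genes are known for E2F sites, here TTCCCGC and TTGGCGC. Windows of 300 bases, from 250 before to 50 after each gene's start on GRCm38.p6, were taken from RefSeq and searched on both strands. For the mitosis lists 69 of 84 genes had 75 windows, and 64.0% of them held a CHR, against 17.9% of all 32851 windows. A CCAAT box stood in 69.3% of them, against 37.4%. For the replication and repair lists 48 of 61 genes had 57 windows, of which 36.8% held TTCCCGC and 19.3% held TTGGCGC, against 4.6% and 2.45% of all windows. The CHR share was 27.5% among windows of genes that rose at least 2-fold and 13.2% among those that fell at least 2-fold. Of the windows of all genes tested 12.2% held a CHR. All windows include those of genes not tested, and their share can differ from that of genes tested, as for the CHR. Comparisons of other motifs with all windows, here and below, carry this limit. A match is a run of letters and not a measured site.

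In the windows below the capitals mark the CHR and each CCAAT box on either strand, so that TTCAAA and ATTGG are the same motifs on the other strand and the run CCAATTGG in Ube2c holds overlapping boxes. In Espl1 the CHR begins 27 bases before the gene's start with a CCAAT box 44 bases before it, in Ube2c it begins 29 bases before the start, and in Cdc20, whose protein activates the APC/C, 18 bases before. In Plk1 it begins 30 bases after the start. The windows are chr7:122159185-122159484 (plus strand), chr2:164769679-164769978 (plus), chr15:102296043-102296342 (plus) and chr4:118437294-118437593 (minus).
Plk1: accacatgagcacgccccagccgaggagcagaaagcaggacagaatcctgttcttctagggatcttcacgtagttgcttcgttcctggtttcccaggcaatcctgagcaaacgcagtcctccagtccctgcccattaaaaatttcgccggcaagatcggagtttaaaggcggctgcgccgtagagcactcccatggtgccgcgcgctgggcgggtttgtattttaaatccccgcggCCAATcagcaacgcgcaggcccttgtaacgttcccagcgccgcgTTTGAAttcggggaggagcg
Ube2c: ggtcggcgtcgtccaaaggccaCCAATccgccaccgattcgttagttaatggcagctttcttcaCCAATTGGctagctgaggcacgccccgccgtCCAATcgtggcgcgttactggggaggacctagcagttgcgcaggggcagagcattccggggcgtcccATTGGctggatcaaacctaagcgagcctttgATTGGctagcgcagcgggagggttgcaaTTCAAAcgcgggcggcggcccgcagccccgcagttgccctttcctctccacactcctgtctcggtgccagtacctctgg
Espl1: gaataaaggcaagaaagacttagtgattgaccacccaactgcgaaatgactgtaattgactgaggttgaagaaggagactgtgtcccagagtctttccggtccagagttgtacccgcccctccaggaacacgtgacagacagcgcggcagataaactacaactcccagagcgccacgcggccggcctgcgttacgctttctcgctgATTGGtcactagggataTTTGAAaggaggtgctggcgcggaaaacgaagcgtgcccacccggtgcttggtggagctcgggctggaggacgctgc
Cdc20: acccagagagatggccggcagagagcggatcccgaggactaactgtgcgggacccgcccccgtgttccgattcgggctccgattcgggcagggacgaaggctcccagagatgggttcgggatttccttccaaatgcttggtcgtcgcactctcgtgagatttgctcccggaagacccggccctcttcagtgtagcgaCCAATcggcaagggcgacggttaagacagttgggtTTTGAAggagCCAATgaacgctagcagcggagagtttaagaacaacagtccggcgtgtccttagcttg

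The window of Mcm5 (chr8:75109259-75109558, plus strand) is shown for its TTGGCGC sites, in capitals as their other strand GCGCCAA, which begin 164 and 149 bases before the start.
Mcm5: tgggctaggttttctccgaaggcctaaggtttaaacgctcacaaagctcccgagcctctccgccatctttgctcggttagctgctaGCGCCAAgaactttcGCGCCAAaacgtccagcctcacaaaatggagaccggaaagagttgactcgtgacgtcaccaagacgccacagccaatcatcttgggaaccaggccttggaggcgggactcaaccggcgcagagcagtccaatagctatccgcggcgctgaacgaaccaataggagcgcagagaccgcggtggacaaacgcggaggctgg

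**Figure D3:**
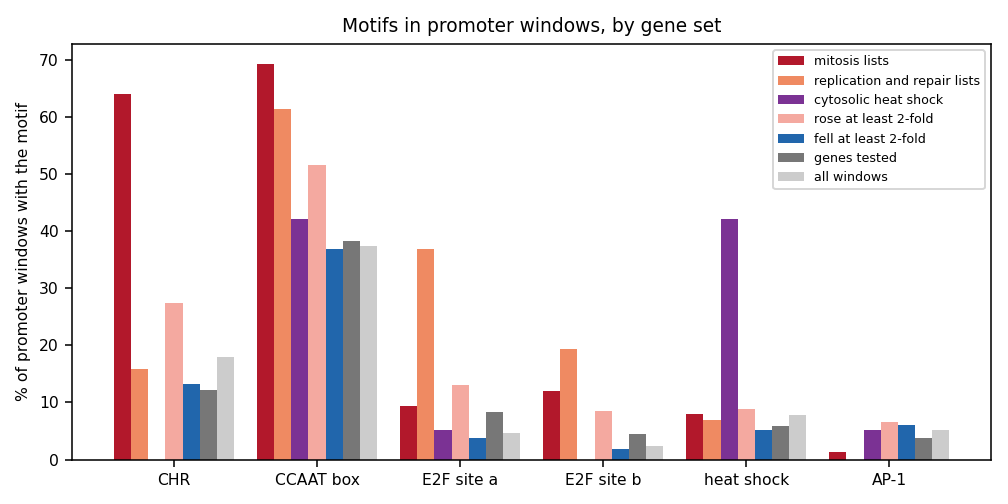
Share of 300-base promoter windows that hold each motif on either strand (y axis, percent), for 6 motifs (x axis) and 7 sets of genes (bars). E2F site a is TTCCCGC and site b TTGGCGC. The CHR bar of the mitosis lists stands at 64.0% and that of all windows at 17.9%.

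Of 12 G1 cyclins, kinases and E2F factors 4 rose and 4 fell, with a median of 0.04 (0.00 to 0.07 with single libraries left out). Ccnd1, cyclin D1, which couples growth signals to the cycle, measured 302 and 297 CPM with LPS and arctigenin, against 124 and 132 CPM with LPS, and rose 2.34-fold. Its kinase partner Cdk6 fell 1.73-fold, Ccnd2 fell 1.49-fold and E2f1 fell 1.53-fold, while the S phase cyclin Ccne2 rose 2.77-fold. Of 11 cell cycle inhibitors 6 rose and 2 fell, with a median of 0.45. Cdkn1a, the CDK inhibitor p21, measured 697 and 619 CPM with LPS and arctigenin, against 352 and 342 CPM with LPS, and rose 1.90-fold beside the mitosis genes. The repressor E2f8 rose 2.88-fold. E2f7 rose 3.14-fold at low levels, with 5.37 and 5.48 CPM with LPS and arctigenin, against 0.992 and 2.47 CPM with LPS, and its log2 fold change of 1.65 was 2.44 without LPS replicate 2. Among 14 p53 targets 3 rose and 4 fell, with a median of 0.02 (−0.03 to 0.05 with single libraries left out), with Gadd45a, a DNA damage gene, down 2.67-fold and the death receptor Fas down 1.80-fold. Of 14 tubulins and microtubule proteins 8 rose and 1 fell (the call lost without LPS replicate 1 or 2 or without arctigenin replicate 2 or with RLE scaling or in DESeq2 or in limma-voom or with all 5 libraries fitted, 2 without arctigenin replicate 1), with a median of 0.44. Tuba1b measured 1305 and 1292 CPM with LPS and arctigenin, against 578 and 683 CPM with LPS, and Stmn1, stathmin, which takes up free tubulin, rose 2.69-fold.

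Immediate early genes and outputs of the ERK pathway went in both directions. These genes respond within minutes to growth factor or LPS signals, and EGR1 and the phosphatase DUSP6 are known outputs of ERK. Egr1 measured 6.14 and 6.24 CPM with LPS and arctigenin, against 73.2 and 76.8 CPM with LPS and 55.0 CPM with vector. It fell 12.1-fold (log2 −3.60 ± 0.11, SE, adjusted p = 2.89e-08), and both arctigenin libraries lay far below each other library. Dusp6 measured 3.84 and 3.35 CPM with LPS and arctigenin, against 13.8 and 13.0 CPM with LPS, and fell 3.73-fold, also to below its vector level of 11.01 CPM. Of 20 immediate early transcription factors 9 fell and 5 rose (3 without LPS replicate 1), with a median of −0.19 (−0.30 with length and GC corrected). Ier2 fell 3.28-fold, Junb 2.34-fold and Myc, which promotes growth, 2.06-fold. By contrast Jun rose 1.66-fold, the serum response factor Srf 1.76-fold and the nuclear receptor Nr4a3 2.16-fold, the last at low levels and with adjusted p from 0.000458 to 0.0679 over the alternative settings. Fos measured 25.8 and 23.0 CPM with LPS and arctigenin, against 31.8 and 27.5 CPM with LPS, without a call (log2 −0.28 ± 0.11, adjusted p = 0.0591).

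Of 16 genes of ERK feedback and output 6 fell and 5 rose (3 without LPS replicate 2), with a median of −0.20 (−0.34 without arctigenin replicate 1). The feedback inhibitor Spry2 was low and lacked a call, with 3.53 and 2.89 CPM with LPS and arctigenin, against 5.76 and 3.63 CPM with LPS (log2 −0.55 ± 0.28, adjusted p = 0.136). The growth factor Hbegf fell 1.98-fold and the phosphatase Dusp4 1.46-fold. The interleukin-6 family cytokine Lif rose 1.99-fold, to 264 and 239.7 CPM with LPS and arctigenin, against 126 and 127 CPM with LPS, and the angiogenic factor Vegfa rose 1.89-fold. Among 7 further dual-specificity phosphatases 3 fell, Dusp2 by 2.04-fold, Dusp1 by 1.68-fold and Dusp16 by 1.18-fold (adjusted p 0.00593 to 0.0696 over the alternatives, highest without LPS replicate 2). The count was 5 without arctigenin replicate 2. Of 21 Ras and MAPK genes 5 fell, 4 rose (the calls lost without LPS replicate 1, 2 without LPS replicate 2) and 12 lacked a call, and the kinase gene Mapk3, which encodes ERK1, was among the last (log2 −0.09 ± 0.06, adjusted p = 0.219). The kinase Map3k8, which links LPS to ERK, fell 1.84-fold, and Rin1, a Ras effector, fell 6.37-fold from few counts, with 1.07 and 0.508 CPM with LPS and arctigenin, against 4.96 and 5.18 CPM with LPS. The log2 fold change of Rin1, −2.67, was −3.31 without arctigenin replicate 1 and −2.23 without arctigenin replicate 2.

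**Figure D4:**
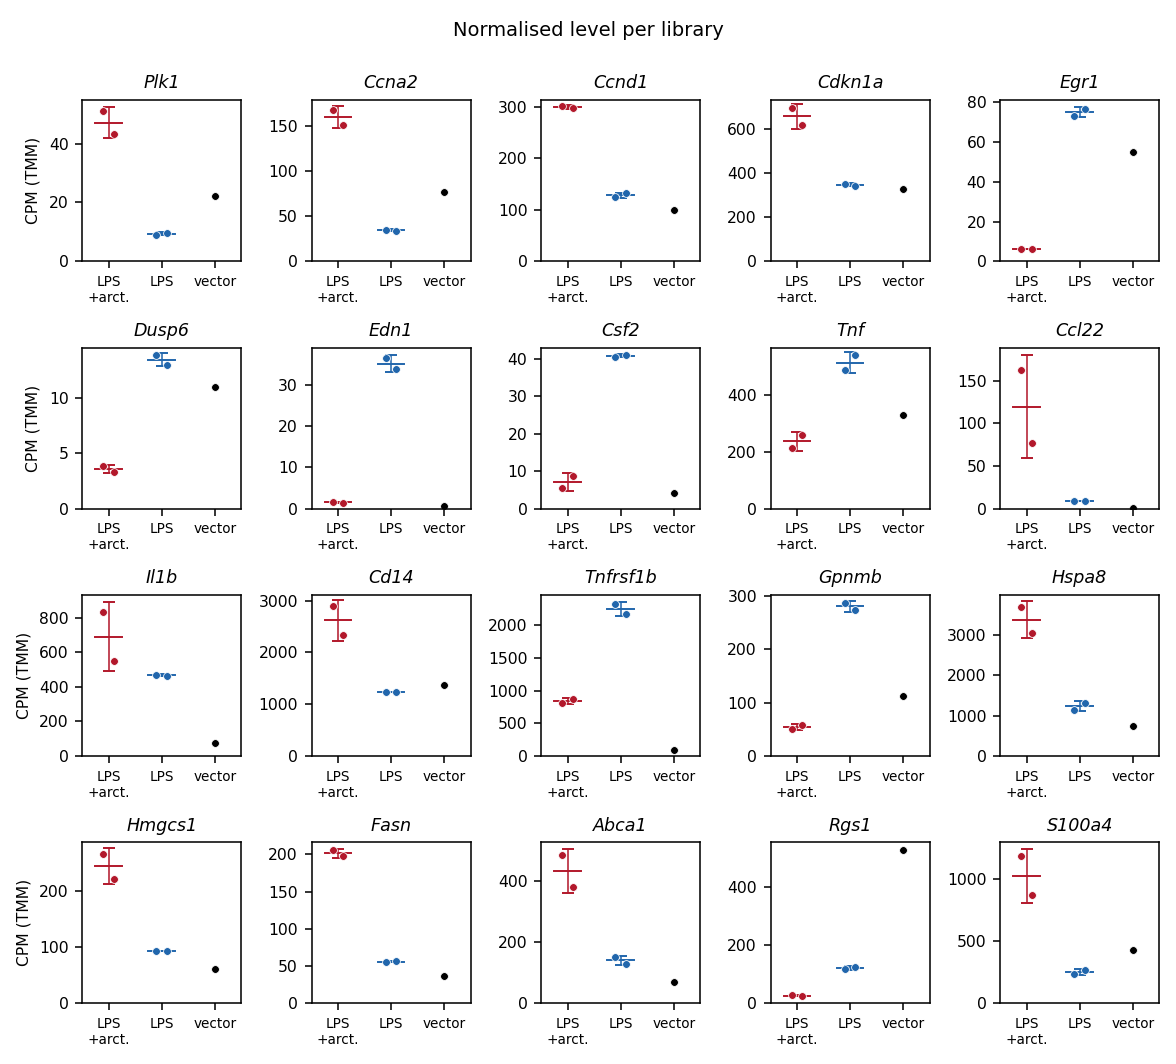
Level per library in TMM-scaled CPM (y axis, linear from 0) for 20 genes described in the text, with LPS with arctigenin left of LPS, and vector last. Points are libraries, bars are mean ± SD of 2 libraries, and vector has a lone point. Egr1, Dusp6, Edn1, Csf2, Tnf, Tnfrsf1b, Gpnmb and Rgs1 are lower with LPS and arctigenin, the other genes higher, with Il1b the gene whose arctigenin libraries stand far apart without a call.

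Edn1 encodes the vasoconstrictor endothelin-1. It measured 1.64 and 1.37 CPM with LPS and arctigenin, against 36.6 and 33.7 CPM with LPS and 0.698 CPM with vector, so the arctigenin libraries stood far below the LPS libraries. The fall was 23.3-fold (log2 −4.54 ± 0.16, SE, adjusted p = 4.60e-08). The gene, protein-coding, is at chr13:42396639-42403358 of mm9, plus strand. Of 7 genes of endothelin and other vascular factors 1 fell (2 without arctigenin replicate 1) and 2 rose (1 without LPS replicate 1 or 2 or without arctigenin replicate 1 or with length and GC corrected or in DESeq2), with a median of −0.09 (−0.56 without arctigenin replicate 1, 0.10 without arctigenin replicate 2, 0.40 with a filter of 30 counts).

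Cytokines went in both directions. Of 19 cytokines 9 fell and 5 rose (2 without LPS replicate 1 or 2, 3 with length and GC corrected), with a median of −0.29 (−0.45 without arctigenin replicate 1, −0.52 without arctigenin replicate 2, −0.46 with length and GC corrected, −0.45 with a filter of 30 counts). Csf2, the growth factor GM-CSF, measured 5.47 and 8.73 CPM with LPS and arctigenin, against 40.4 and 41.0 CPM with LPS, and fell 5.73-fold (log2 −2.52 ± 0.18, SE, adjusted p = 8.64e-06). Csf1, on which macrophages depend, fell 4.02-fold at low levels, and the granulocyte factor Csf3 fell 1.96-fold. Il10, the anti-inflammatory cytokine, measured 53.01 and 51.8 CPM with LPS and arctigenin, against 159 and 165 CPM with LPS, and fell 3.09-fold. Tnf measured 213 and 260.3 CPM with LPS and arctigenin, against 488 and 539.8 CPM with LPS, and fell 2.17-fold. For Il10 and Tnf alike no arctigenin library reached the lower LPS library. Il6 fell 1.61-fold to 60.4 and 47.5 CPM with LPS and arctigenin, against 79.2 and 94.1 CPM with LPS, and Il1rn, the interleukin-1 receptor antagonist, fell 1.52-fold. In the other direction Osm, oncostatin M, rose 1.72-fold and the alarmin Il33 rose 1.30-fold, with 2259.7 and 1851 CPM in the arctigenin libraries, against 1569.9 and 1603 CPM in the LPS libraries (adjusted p 5.60e-08 to 0.0594 over the alternatives, highest without LPS replicate 1). Il1b measured 832 and 548 CPM with LPS and arctigenin, against 470.4 and 462 CPM with LPS. Both arctigenin libraries lay above both LPS libraries, but they differed from each other by more than the lower of them did from LPS, and Il1b lacked a call (log2 0.57 ± 0.20, adjusted p = 0.0691). It was called in 4 of 12 alternatives (adjusted p 3.18e-12 to 0.272). Ifnb1, interferon beta, had under 1 CPM in each library and its adjusted p lay between 0.0149 and 0.2 over the alternative settings (0.0372 as tested).

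Chemokines also went both ways. Of 15 genes 8 fell and 5 rose (2 without LPS replicate 1), with a median of −0.34. The monocyte attractants Ccl2 and Ccl7 fell 1.98-fold and 2.41-fold, Ccl6 fell 2.71-fold, and the neutrophil attractants Cxcl2 and Cxcl3 fell 2.30-fold and 1.94-fold. Ccl3 and Ccl4, which attract macrophages and T cells, fell 1.26-fold and 1.30-fold. Ccl5, which attracts T cells and monocytes, measured 445 and 337 CPM with LPS and arctigenin, against 114 and 143 CPM with LPS, and rose 3.04-fold. Cxcl10, which attracts T cells, measured 498 and 319.9 CPM with LPS and arctigenin, against 179 and 227 CPM with LPS, and rose 2.02-fold (log2 1.01 ± 0.24, SE, adjusted p = 0.0223, and 0.00128 to 0.165 over the alternatives, highest with no filter on low counts; without LPS replicate 1 it was 0.113). For both, arctigenin replicate 1 was the highest library. Ccl17 and Ccl22 are ligands of the receptor CCR4. Ccl17 was low, with 1.94 and 0.609 CPM with LPS and arctigenin, against 0 and 0.387 CPM with LPS, and lacked a call (log2 2.70 ± 1.01, adjusted p = 0.0588). Ccl22 measured 162 and 76.7 CPM with LPS and arctigenin, against 9.03 and 9.24 CPM with LPS and 0.426 CPM with vector, and rose 13.1-fold (log2 3.71 ± 0.43, SE, adjusted p = 0.00183). Its arctigenin replicates were more than 1 apart on the log2 scale, its log2 fold change was 3.07 without replicate 1, and its adjusted p lay between 2.12e-24 and 0.127 over the alternative settings, with no call when either LPS library was left out. The protein-coding gene Ccl22 is at chr8:97269490-97275599 of mm9, plus strand.

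Many receptors for these signals fell. Of 23 cytokine and chemokine receptors 16 fell, 6 at least 2-fold, and 1 rose, with a median of −0.40. Tnfrsf1b, the TNF receptor TNFR2, measured 811 and 878 CPM with LPS and arctigenin, against 2326 and 2181 CPM with LPS and 90.7 CPM with vector, and fell 2.67-fold (log2 −1.42 ± 0.07, SE, adjusted p = 2.70e-07). Il7r, the interleukin-7 receptor, fell 4.75-fold, and Ccr1, a receptor of Ccl3 and Ccl5, fell 3.95-fold. Il1r1, the signalling receptor of interleukin-1, fell 2.81-fold at low levels, with 1.53 and 1.57 CPM in the arctigenin libraries, against 4.58 and 4.16 CPM in the LPS libraries. Cx3cr1, the fractalkine receptor, rose 2.42-fold, with 41.0 and 40.0 CPM with LPS and arctigenin, against 16.4 and 17.0 CPM with LPS. Csf1r, the receptor of Csf1, measured 74.7 and 97.0 CPM with LPS and arctigenin, against 106 and 95.2 CPM with LPS, without a call (log2 −0.23 ± 0.12, adjusted p = 0.167).

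Of 20 Toll-like receptors and their adaptors 13 fell and 3 rose (1 without LPS replicate 1 or without arctigenin replicate 2), with a median of −0.42. Tlr13, a sensor of bacterial ribosomal RNA, measured 22.3 and 26.1 CPM with LPS and arctigenin, against 87.8 and 81.4 CPM with LPS, and fell 3.50-fold. Tlr7, which senses single-stranded RNA, fell 2.12-fold, and Irak3, a brake on the pathway, fell 1.90-fold. Tlr4 itself fell 1.18-fold (adjusted p 0.00451 to 0.101 over the alternatives, highest without LPS replicate 1). Its co-receptor Cd14 rose 2.12-fold, with 2904 and 2337 CPM with LPS and arctigenin, against 1232 and 1240.3 CPM with LPS, and the lower arctigenin library was well above both LPS libraries.

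The NF-kB pathway feeds back on itself through inhibitors that are its own targets. Of 21 of its genes 10 fell (6 without LPS replicate 1), 1 rose (the call lost without LPS replicate 1 or 2, 2 with length and GC corrected or with no filter on low counts) and 10 lacked a call, with a median of −0.16. Tnfaip3, the inhibitor A20, measured 109 and 95.4 CPM with LPS and arctigenin, against 221 and 234 CPM with LPS, and fell 2.22-fold, and Nfkbiz and Nfkb2 fell 1.82-fold and 1.57-fold. Nfkbia, the inhibitor IκBα and a direct NF-kB target, measured 890.0 and 841 CPM with LPS and arctigenin, against 823 and 912 CPM with LPS. Its groups overlapped (log2 −0.00 ± 0.07, adjusted p = 0.972). Among 8 costimulatory and checkpoint genes 3 fell, Cd80 by 2.78-fold, Cd274, which encodes PD-L1, by 1.501-fold and Tnfsf9 by 1.19-fold (adjusted p 0.000359 to 0.0902 over the alternatives, highest without LPS replicate 2). Of 12 antigen presentation genes 3 rose and 2 fell (1 without LPS replicate 1 or 2 or without arctigenin replicate 2 or in DESeq2). H2-D1, an MHC class I gene, measured 719 and 709 CPM with LPS and arctigenin, against 702 and 727 CPM with LPS, without a call, and Cd74, the invariant chain, rose 1.41-fold.

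Interferon genes went both ways, as did all genes tested, of which 23.6% fell and 24.0% rose. Of 34 genes 12 fell, 10 rose and 12 lacked a call, with a median of 0.02 (−0.05 to 0.07 with single libraries left out). Irf1 fell 2.93-fold, with 12.6 and 13.9 CPM with LPS and arctigenin, against 36.9 and 40.8 CPM with LPS, and Rsad2, the antiviral protein viperin, fell 2.38-fold, with 236 and 236 CPM with LPS and arctigenin, against 530.4 and 593 CPM with LPS. Oasl1, an inhibitor of Irf7 translation, rose 1.85-fold, with 901 and 804 CPM with LPS and arctigenin, against 454 and 469.7 CPM with LPS. The groups were clearly apart in these 3 genes, with Irf1 and Rsad2 lower and Oasl1 higher. Isg15, a ubiquitin-like antiviral protein, measured 218 and 187 CPM with LPS and arctigenin, against 206 and 209 CPM with LPS, without a call (log2 −0.04 ± 0.08, adjusted p = 0.721).

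Of 16 genes of inducible mediators 7 fell and 5 rose (2 without LPS replicate 1). Ptgs2, the inducible cyclooxygenase COX-2, measured 10412 and 9603 CPM with LPS and arctigenin, against 13069.6 and 13777 CPM with LPS and 1299 CPM with vector, and fell 1.34-fold (log2 −0.42 ± 0.06, SE, adjusted p = 0.000289). The acute-phase gene Saa3 fell 1.92-fold, Lcn2, which binds bacterial iron carriers, 1.89-fold, and Acod1, which makes itaconate, 1.45-fold. Nos2, the inducible nitric oxide synthase, measured 851 and 803 CPM with LPS and arctigenin, against 642 and 679.9 CPM with LPS, and rose 1.25-fold. Ass1, which regenerates the arginine that Nos2 uses, rose 2.71-fold. Arg1, arginase, which competes for arginine, rose to 0.972 and 1.02 CPM with LPS and arctigenin, against 0.0473 and 0.242 CPM with LPS, but its adjusted p lay between 0.00866 and 0.0953 over the alternatives. Leaving out LPS replicate 1 gave a log2 fold change of 2.01 in place of 2.74, and leaving out LPS replicate 2 gave 4.23. Slc7a2, an arginine transporter, fell, with 3.53 and 1.27 CPM with LPS and arctigenin, against 6.38 and 5.95 CPM with LPS, with a log2 fold change of −1.36, of −2.28 without arctigenin replicate 1 and −0.80 without arctigenin replicate 2 (adjusted p 2.86e-06 to 0.104 over the alternatives, highest without LPS replicate 1).

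**Figure D5:**
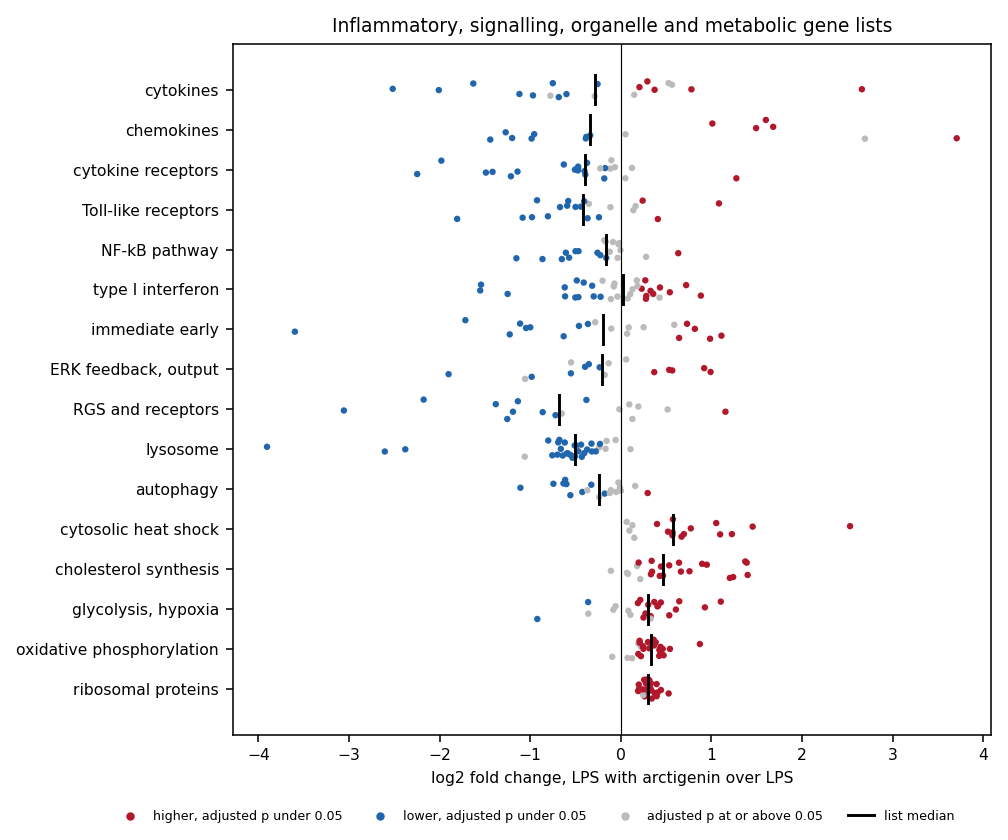
Log2 fold change of LPS with arctigenin over LPS (x axis) for each tested member of 16 gene lists (rows), with a black bar at each list's median. The medians run from −0.69 for regulators of G-protein signalling and their receptors to 0.58 for heat shock genes, drawn as cytosolic heat shock, which hold a mitochondrial pair too.

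Heat shock genes rose. Heat shock factor 1 is known to drive HSP70, HSP90 and their co-chaperones when proteins unfold in the cytosol. Of 17 heat shock genes, which include the factors themselves and the mitochondrial chaperones Hspd1 and Hspe1, 13 rose, 5 at least 2-fold (median 0.58). Hspd1 and Hspe1 rose 1.48-fold and 1.49-fold. Hspa8, the constitutive HSP70, measured 3707 and 3059.7 CPM with LPS and arctigenin, against 1144 and 1323 CPM with LPS and 751 CPM with vector, and rose 2.74-fold (log2 1.46 ± 0.11, SE, adjusted p = 3.81e-05). Dnaja1 and Dnajb1, its J-domain partners, rose 2.14-fold and 2.34-fold, and Hsph1, its exchange factor, 2.08-fold. Hspa1b, the inducible HSP70, measured 20.2 and 15.1 CPM with LPS and arctigenin, against 1.84 and 4.26 CPM with LPS, and rose 5.78-fold. Its LPS libraries differed more than 2-fold from each other, its log2 fold change of 2.53 was 3.25 without LPS replicate 2, and it has a near-identical copy with which reads may be shared. Hsp90ab1 rose 1.71-fold, with 2055 and 1998 CPM in the arctigenin libraries, against 1158 and 1214 CPM in the LPS libraries. The heat shock element holds the run GAANNTTC, which stood in 42.1% of 19 promoter windows of 13 of these genes, against 7.86% of all windows. It is in capitals in the window of Hspa1b (chr17:34959189-34959488, minus strand, RefSeq, GRCm38.p6), where it begins 104 bases before the start.
Hspa1b: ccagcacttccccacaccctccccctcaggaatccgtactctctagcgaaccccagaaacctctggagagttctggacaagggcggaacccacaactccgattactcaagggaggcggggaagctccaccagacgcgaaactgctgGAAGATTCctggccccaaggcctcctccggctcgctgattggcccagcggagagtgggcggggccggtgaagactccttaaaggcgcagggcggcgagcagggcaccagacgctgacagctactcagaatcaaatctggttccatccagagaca

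Of 20 chaperone and unfolded protein response genes of the endoplasmic reticulum 4 rose, 5 fell and 11 lacked a call, with a median of 0.00 (−0.01 to 0.05 with single libraries left out). Hspa5, its main HSP70, measured 933 and 1061 CPM with LPS and arctigenin, against 856 and 949 CPM with LPS (log2 0.14 ± 0.08, adjusted p = 0.153), the sensor Ern1 fell 2.03-fold and Calr, calreticulin, rose 1.26-fold. Of 21 genes of ATF4 and amino acid stress 9 fell and 2 rose (1 without LPS replicate 2), with a median of −0.19 (−0.08 without arctigenin replicate 1, −0.34 without arctigenin replicate 2). Atf4 itself measured 494 and 549 CPM with LPS and arctigenin, against 533 and 525 CPM with LPS (log2 −0.02 ± 0.07, adjusted p = 0.825). Ddit3, which encodes CHOP, fell 1.86-fold, with 38.1 and 53.5 CPM with LPS and arctigenin, against 87.7 and 82.7 CPM with LPS, and the amino acid enzymes Cth and Asns fell 1.98-fold and 1.49-fold. In all 3 of them arctigenin replicate 1 was the lowest library and both arctigenin libraries lay below LPS. The motif TGATGNAA, which holds the core of ATF4 sites, stood in 23.8% of 21 windows of 18 list genes, against 3.97% of all windows. The pseudokinase Trib3 fell 2.39-fold, with adjusted p between 9.00e-12 and 0.0745 over the alternatives.

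NRF2 drives antioxidant genes. Of 17 genes 7 rose and 2 fell (1 without LPS replicate 2 or without arctigenin replicate 1 or with no filter on low counts), with a median of 0.16. The peroxiredoxin Prdx1 measured 1294 and 1298 CPM with LPS and arctigenin, against 777 and 763 CPM with LPS, and rose 1.68-fold. Hmox1, heme oxygenase 1, measured 713 and 1114 CPM with LPS and arctigenin, against 528 and 556 CPM with LPS, and rose 1.69-fold (adjusted p = 0.039, and 1.77e-14 to 0.208 over the alternatives, above 0.05 when either LPS library was left out). Its arctigenin libraries were far apart. Sqstm1, the autophagy receptor p62, fell 2.15-fold, with 453 and 656 CPM with LPS and arctigenin, against 1219 and 1171 CPM with LPS (adjusted p = 0.00308, and 1.55e-16 to 0.0534 over the alternatives). Of 6 metal response genes 3 rose and 2 fell (the calls lost without LPS replicate 1, 1 without arctigenin replicate 2 or with length and GC corrected). The metallothioneins, which bind zinc and copper, were among the rises, Mt1 with 1025 and 746 CPM with LPS and arctigenin, against 234 and 278 CPM with LPS, and Mt2 with 3709 and 3134 CPM with LPS and arctigenin, against 1635 and 1716 CPM with LPS. They rose 3.46-fold and 2.04-fold, and both groups were apart from each other in each. Of 3 genes of the aryl hydrocarbon receptor, its partner Arnt rose 1.23-fold, and the target Tiparp measured 323 and 351 CPM with LPS and arctigenin, against 328 and 350.4 CPM with LPS (log2 −0.01 ± 0.07, adjusted p = 0.912). Ahrr was low and lacked a call, with 0.819 and 1.07 CPM with LPS and arctigenin, against 1.94 and 1.94 CPM with LPS (log2 −1.03 ± 0.40, adjusted p = 0.0554). In limma-voom, with all 5 libraries fitted and with a filter of 30 counts 1 gene of this list fell.

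Lysosomal genes fell as a group. The MiT/TFE factors, among them TFEB, TFE3 and MITF, are known to drive genes of lysosomes and autophagy. Of 33 genes 27 fell, with a median of −0.51, while the other 6 lacked a call. Gpnmb, a transmembrane glycoprotein and known MITF target, measured 50.04 and 57.7 CPM with LPS and arctigenin, against 287 and 273 CPM with LPS and 112 CPM with vector, and fell 5.20-fold (log2 −2.38 ± 0.08, SE, adjusted p = 4.60e-08). Atp6v0d2, a subunit of the proton pump, fell 15.0-fold from low levels, with 0.307 and 0.305 CPM with LPS and arctigenin, against 4.16 and 5.18 CPM with LPS. Slc46a3, a lysosomal transporter, fell 6.08-fold, with 1.13 and 1.12 CPM with LPS and arctigenin, against 7.99 and 5.71 CPM with LPS. The other called falls in the list were under 2-fold. Hydrolases were among them, such as the cathepsins Ctsd and Ctsb, which fell 1.47-fold and 1.29-fold. Outside the list Psap, prosaposin, whose products help lysosomal enzymes reach their lipid substrates, fell 1.86-fold, with 994 and 1069.7 CPM in the arctigenin libraries, against 1917 and 1924 CPM in the LPS libraries. Mitf fell 1.41-fold, and Tfeb (log2 −0.24 ± 0.16, adjusted p = 0.249) and Tfe3 (log2 −0.16 ± 0.08, adjusted p = 0.117) lacked a call. The protein-coding gene Gpnmb is at chr6:48986517-49020928 of mm9, plus strand.

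Of 19 autophagy genes 9 fell and 1 rose (the call lost without LPS replicate 1 or 2 or without arctigenin replicate 1 or with length and GC corrected or in DESeq2), with a median of −0.24, with the receptor Nbr1 down 1.53-fold and Map1lc3b, which encodes the membrane-bound LC3B, down 1.47-fold. Of 10 genes of osteoclasts, into which RAW264.7 cells can develop, 5 fell (3 without LPS replicate 1) and 1 rose. The largest change in the list was the fall of Atp6v0d2 from low levels given above, 15.0-fold. The kinase Src fell 1.81-fold, and among genes needed for cell fusion Ocstamp rose 3.22-fold, with 8.90 and 7.00 CPM with LPS and arctigenin, against 1.65 and 3.29 CPM with LPS, and Dcstamp fell 1.64-fold, with 11.1 and 8.83 CPM with LPS and arctigenin, against 16.8 and 16.0 CPM with LPS.

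Genes of cholesterol synthesis rose. SREBP2 is known to switch on cholesterol synthesis when sterols are scarce, and SREBP1 fatty acid synthesis. Of 23 cholesterol genes 18 rose, 5 at least 2-fold (median 0.47), and with transcript length and GC content corrected for 16 rose. Hmgcs1, the synthase of an early step of the pathway, measured 266 and 221 CPM with LPS and arctigenin, against 92.9 and 93.0 CPM with LPS and 61.4 CPM with vector, and rose 2.62-fold (log2 1.39 ± 0.09, SE, adjusted p = 2.62e-06). Idi1, the isomerase that supplies the units from which sterols are built, measured 210.2 and 231 CPM with LPS and arctigenin, against 81.8 and 85.3 CPM with LPS, and rose 2.64-fold. In both genes the 2 arctigenin libraries stood above the LPS libraries. Dhcr7, a reductase of the last steps, measured 26.1 and 27.9 CPM with LPS and arctigenin, against 29.9 and 28.5 CPM with LPS (log2 −0.11 ± 0.10, adjusted p = 0.388). The SREBP run TCACNCCA stood in 15.8% of 19 windows of 16 list genes, against 4.36% of all windows.

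Fasn, fatty acid synthase, measured 206 and 197 CPM with LPS and arctigenin, against 55.7 and 56.2 CPM with LPS and 37.3 CPM with vector, so that both groups were tight and 3.61-fold apart (log2 1.85 ± 0.06, SE, adjusted p = 4.60e-08). The protein-coding gene is at chr11:120667254-120685492 of mm9, minus strand. Acaca, which makes its substrate, rose 1.62-fold. Of 19 genes of fatty acid synthesis and storage 7 rose and 5 fell (3 without LPS replicate 1 or 2), and Plin2, the coat of lipid droplets, fell 1.80-fold. Of 12 sterol efflux genes 2 rose and 4 fell, against 24.0% and 23.6% of all genes, so the list does not stand apart by its counts. Abca1, which exports cholesterol, measured 485 and 382 CPM with LPS and arctigenin, against 152 and 129.7 CPM with LPS, and rose 3.08-fold, while the exporter Abcg1 fell 1.35-fold (adjusted p 0.00107 to 0.103 over the alternatives) and Npc1, which moves cholesterol out of lysosomes, fell 1.89-fold.

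Energy genes rose by small amounts. The list of glycolysis and hypoxia held 23 genes, of which 15 rose and 2 fell, with a median of 0.30. The liver-type phosphofructokinase Pfkl rose 2.15-fold, with 121 and 129 CPM with LPS and arctigenin, against 59.4 and 56.9 CPM with LPS, and Bnip3, a mitophagy gene, rose 1.90-fold. Pfkfb3, which makes the activator of phosphofructokinase, fell 1.89-fold, with 556 and 635 CPM with LPS and arctigenin, against 1125 and 1130.0 CPM with LPS. The glucose transporter Slc2a1 rose 1.45-fold. Of 28 nuclear genes of oxidative phosphorylation 23 rose (15 without LPS replicate 1, 13 with length and GC corrected), with a median of 0.33 (0.16 with length and GC corrected), led by the cytochrome oxidase subunit Cox7a2 with 1.83-fold. Of 20 citric acid cycle genes 11 rose and 2 fell (1 without LPS replicate 2), with a median of 0.32, with the mitochondrial isocitrate dehydrogenase Idh2 up 1.66-fold and the cytosolic Idh1 down 1.34-fold.

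Genes of protein synthesis had small changes, part of which went with transcript length. Of 26 cytosolic ribosomal protein genes 25 rose (8 with length and GC corrected), with a median of 0.30 (0.05 with length and GC corrected), the most being 1.44-fold for Rps15. Of 23 ribosome biogenesis genes 13 rose and 1 fell (2 without arctigenin replicate 1 or with no filter on low counts or with a filter of 30 counts or in limma-voom or with the replicate block), with a median of 0.23, with the nucleolar genes Ncl and Npm1 up 1.82-fold and 1.45-fold and Dkc1, which modifies ribosomal RNA, up 2.09-fold. Of 25 proteasome subunits 10 rose (6 without LPS replicate 1 or with length and GC corrected) and 2 fell (the calls lost without LPS replicate 1, 1 without LPS replicate 2, 7 with length and GC corrected), with a median of 0.08 (−0.03 with length and GC corrected). Genes with short transcripts had higher log2 fold changes in general. The median was 0.19 in the fifth of genes with the shortest transcripts and −0.08 in the fifth with the longest. With both corrected for, 8 ribosomal protein genes rose and 5 fell (median 0.05), 13 oxidative phosphorylation genes rose (median 0.16), and 6 proteasome genes rose and 7 fell. Ribosomal protein genes also share reads with many pseudogenes, so their values are uncertain.

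Of 22 identity genes 4 rose and 7 fell (11 with length and GC corrected), with a median of −0.06 (−0.21 with length and GC corrected). Spi1, the lineage factor PU.1, rose 1.16-fold (adjusted p 0.00261 to 0.117 over the alternatives, highest without LPS replicate 1), and Adgre1, which encodes F4/80, fell 1.32-fold. The inhibitory Fc receptor Fcgr2b fell 2.06-fold, with 99.4 and 115 CPM with LPS and arctigenin, against 222 and 219.9 CPM with LPS, while the activating Fcgr1 rose 1.26-fold. Lyz2, lysozyme, measured 1587 and 1552 CPM with LPS and arctigenin, against 1686 and 1582 CPM with LPS and 4241 CPM with vector (log2 −0.06 ± 0.06, adjusted p = 0.458). Of 8 alternative activation genes 4 rose (2 without LPS replicate 1) and 2 fell. The mannose receptor Mrc1 measured 58.8 and 49.5 CPM with LPS and arctigenin, against 16.1 and 18.5 CPM with LPS, and rose 3.13-fold. Clec7a, the fungal receptor Dectin-1, fell 3.08-fold, and the factor Klf4 fell 2.20-fold.

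Of 16 scavenger and efferocytosis receptors 4 rose (the calls lost without LPS replicate 1, 2 without LPS replicate 2) and 2 fell (1 without LPS replicate 1 or 2), and Cd36, which takes up oxidised lipids, rose 1.17-fold (adjusted p 8.47e-05 to 0.0543 over the alternatives). Of 17 integrins and adhesion genes 8 fell and 2 rose (the calls lost without LPS replicate 1 or with length and GC corrected, 1 without arctigenin replicate 1 or in DESeq2), with a median of −0.31, with Itgax, which encodes CD11c, down 2.59-fold and Itgam, CD11b, down 1.47-fold. A list of 12 genes held metalloproteinases, their inhibitors and the collagen chain Col5a3, and of them 4 rose and 3 fell. Col5a3 rose 2.74-fold, with 204 and 149 CPM with LPS and arctigenin, against 62.2 and 66.4 CPM with LPS. Timp1 rose 2.20-fold, with 203 and 150.3 CPM with LPS and arctigenin, against 80.4 and 80.2 CPM with LPS, and the macrophage elastase Mmp12 fell 3.05-fold. Of 23 genes of the BCL2 family and caspases 11 fell and 1 rose (2 without arctigenin replicate 1, 3 without arctigenin replicate 2), with a median of −0.25. The death genes Bid and Bcl2l11 fell 2.02-fold and 1.69-fold, the inflammasome gene Nlrp3 1.76-fold and the survival gene Bcl2 1.47-fold, while the effector Bak1 rose 1.39-fold.

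Of 16 genes around G-protein-coupled receptors 9 fell, 6 of them at least 2-fold, while Rgs16 rose and the others lacked a call (median −0.69). Without arctigenin replicate 2 the median was −0.50 and more of them rose. Rgs1, which ends chemokine receptor signals, measured 27.2 and 26.4 CPM with LPS and arctigenin, against 117 and 126 CPM with LPS and 528 CPM with vector, so its level with LPS and arctigenin was the lowest of the 3 groups. Ptger2, a receptor for prostaglandin E2, fell 8.32-fold from low levels, with 0.512 and 0.254 CPM with LPS and arctigenin, against 3.40 and 3.05 CPM with LPS. Rgs2 and the receptor Gpr84 fell 2.60-fold and 2.38-fold. Rgs16 rose 2.23-fold, with 48.2 and 52.0 CPM with LPS and arctigenin, against 22.1 and 22.9 CPM with LPS. Among windows of genes that fell at least 2-fold, 6.0% held the AP-1 motif TGACTCA and 2.71% the cAMP response element TGACGTCA, against 5.20% and 1.79% of all windows.

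Other large changes were in genes of mixed function. Among the 20 largest rises of genes with a mean log2 CPM of at least 3, Bzrap1, a binding protein of the benzodiazepine receptor, measured 46.7 and 45.8 CPM with LPS and arctigenin, against 5.20 and 5.08 CPM with LPS. Tnfrsf9, the costimulatory receptor 4-1BB, measured 193 and 163 CPM with LPS and arctigenin, against 40.5 and 39.5 CPM with LPS, and rose 4.44-fold. The scaffold Akap12 rose 5.06-fold, with 61.6 and 44.8 CPM with LPS and arctigenin, against 9.69 and 11.3 CPM with LPS. S100a4, a calcium-binding protein linked to cell motility, rose 4.04-fold, with 1184 and 877 CPM with LPS and arctigenin, against 237 and 273 CPM with LPS. The helicase Pif1 rose 4.97-fold, and the cell division genes Aspm, Pbk and Gtse1 rose 4.00-fold, 3.93-fold and 3.86-fold. Lsm6, of the spliceosome, and Nufip1, an RNA-binding protein, rose 4.30-fold and 4.04-fold.

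Among the 20 largest falls were surface molecules and transporters. Cd83, a marker of activated antigen-presenting cells, measured 47.1 and 37.5 CPM with LPS and arctigenin, against 179 and 178 CPM with LPS, and fell 4.22-fold. Hcar2, the nicotinic acid receptor, fell 3.77-fold, with 40.7 and 49.99 CPM with LPS and arctigenin, against 175 and 167 CPM with LPS. Aqp9, a channel for water and glycerol, measured 2.46 and 5.38 CPM with LPS and arctigenin, against 19.04 and 19.9 CPM with LPS. Its log2 fold change of −2.31 was −2.98 without arctigenin replicate 2 and −1.86 without arctigenin replicate 1. The nucleoside transporter Slc28a2, the deaminase Ampd3 and Soat2, which esterifies cholesterol, fell 4.08-fold, 3.92-fold and 3.80-fold. The phosphatase Eya4 fell 4.37-fold, Arl11 4.27-fold, the arrestin-domain gene Arrdc4 4.19-fold and the kinase Mylk2 3.99-fold. Cd300ld5, Zfp719 and Ankdd1a, also among the 20, fell 4.49-fold, 3.57-fold and 3.76-fold.

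Among the largest gains in CPM, beside Hspa8, were the actins of the cytoskeleton. Actb measured 4361 and 4161 CPM with LPS and arctigenin, against 2213 and 2070.0 CPM with LPS, and Actg1 measured 3557 and 3224 CPM with LPS and arctigenin, against 1752 and 1721 CPM with LPS. They rose 1.99-fold and 1.95-fold. Odc1, the rate-limiting enzyme of polyamine synthesis, rose 1.31-fold, and Ppia, cyclophilin A, 1.59-fold. The largest losses included Ptgs2, Ccl9 (1.31-fold), Plek (1.35-fold), a platelet and leukocyte signalling protein, and Mpeg1, which encodes the pore protein perforin-2, with 865 and 836 CPM with LPS and arctigenin, against 1776 and 1723 CPM with LPS.

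Some genes stayed level at high counts. Those with the smallest log2 fold changes included the receptor phosphatase Ptprc, the kinase Lyn, the phosphatase Ptpn6 and the chaperone Pdia6. Lyn measured 492 and 456 CPM with LPS and arctigenin, against 481 and 463 CPM with LPS, and Ptpn6 measured 275 and 277 CPM with LPS and arctigenin, against 276 and 274 CPM with LPS. These genes were picked for small changes without a call, so the lack of a call is no result of its own (log2 0.01 ± 0.06, adjusted p = 0.946 for Lyn, and log2 0.01 ± 0.06, adjusted p = 0.926 for Ptpn6).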

How the data were processed

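RNA sequencing gave 1 table of estimated counts for 75959 transcripts in 5 libraries. Per the submitters' processing notes, the authors used Trimmomatic, HISAT2, Cufflinks, HTSeq and DESeq with the mouse build mm9. No source used here states which step gave the deposited estimated counts their decimals. Transcripts were summed by gene symbol and rounded to whole numbers. Genes with at least 10 counts in at least 2 of the 4 libraries of the comparison were fitted with edgeR 4.0.16 in R 4.3.3 (TMM scaling, robust quasi-likelihood F test), with Benjamini-Hochberg adjustment over all 11062 genes and a threshold of 0.05. The SE of a log2 fold change is its size divided by the square root of F. With 2 libraries a group the fit has 2 residual degrees of freedom before edgeR pools the spread over genes. The fit was also run on counts simulated from its own estimates of level and spread. Such a run checks the code and cannot show how well the model suits these data. Alternatives used DESeq2 1.42.0, limma 3.58.1 and other filters, scalings and sets of libraries. Those correcting for transcript length and GC content were added after the data had been seen.

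The gene lists and the named genes were chosen with earlier results of these data known. Named genes were the 20 largest rises and the 20 largest falls among called genes whose groups did not overlap and whose mean log2 CPM was 3 or more, unnamed gene models passed over. They were also the 12 largest gains and the 12 largest losses in CPM, and up to 5 called members of each list. Further named genes were 10 called genes whose arctigenin replicates lay farthest apart, 12 genes at high counts with the smallest changes and no call, and Egr1, Edn1, Tnf, Il6, Nos2, Ptgs2, Dusp6, Spry2, Plk1 and Ccnb1. All other genes in the text were named after their values had been seen. Libraries with the same replicate number did not deviate together (r = −0.0194 over genes), so the main fit has no replicate block. Positions come from the mm9 annotation and promoter windows from RefSeq on GRCm38.p6, where motifs were searched on both strands. The lists' long noncoding RNAs were not analysed here, and some list members are not reported here.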

Additional observations from a re-analysis of the deposited data

How the results depend on the processing

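Against the 5266 genes called, the test against a 1.5-fold change called 870 (421 higher and 449 lower, 326 of the lower at least 2-fold). The same test on single transcripts called 342 (178 higher and 164 lower, 105 and 97 of them at least 2-fold). The cause of the lower number with transcripts was not tested. Leaving out 1 library gave from 3639 genes without LPS replicate 1 to 5411 without arctigenin replicate 2, and the lone library of a group is then assumed to vary like the others. The fit with the replicate block called 5202, DESeq2 4235 and limma-voom 5273. The fit with length and GC corrected called 5035. Over all genes tested, 12 were called in both that fit and the main fit with opposite signs. Named genes are here the 303 picked by the rules above. Genes named after their values had been seen, such as Tlr4, Spi1, Il33 and Cxcl10, are not counted. No sign of a named gene reversed in the settings in which named genes were compared. The test against a 1.5-fold change and the test on single transcripts were not among these. DESeq2 covered 301 named genes and the filter of 30 counts 298. Calls were lost in 32 named genes without LPS replicate 1, 24 without LPS replicate 2, 10 without arctigenin replicate 1, 8 without arctigenin replicate 2, 12 with length and GC corrected, 10 in DESeq2, 8 without a filter on low counts, 3 with the replicate block and 1 with a filter of 30 counts. With 2 libraries a group, small changes of genes with few counts are not detectable.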
